A study of Mus musculus with 74 samples.

Results

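The data described here are 8 RNA sequencing libraries of cells sorted as macrophages from the spleens of tumor-bearing female mice, 4 from mice aged 12 months and 4 from mice aged 3 months. They were chosen by their labels, as the spleen libraries of the macrophage sort, and are 8 of the 74 libraries of the series, which covers 20 groups of sorted immune cells from spleens and tumors. All mice, of both ages, were C57/BL/6J animals from the Jackson Laboratory that carried subcutaneous MC38 tumors, a colon carcinoma line, and organs were taken on day 10 of tumor growth. Both ages therefore describe spleens of tumor bearers. Each library came from 1000 cells positive for CD45, CD11b and F4/80, sorted in 2 rounds and lysed for Smart-seq2, a full-length cDNA method. Nothing in the labels says whether the libraries of one age came from separate animals, and p-values therefore measure the spread between these libraries, which may be technical.

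The spleen holds several cells that a CD11b and F4/80 gate can contain. Red pulp macrophages clear aged erythrocytes and recycle their iron. They carry much F4/80 and little CD11b, and depend on the transcription factor Spi-C. Classical monocytes leave the blood for inflamed tissue, while patrolling monocytes, which depend on Nr4a1, survey the vessel wall and are plentiful in the spleen. Neutrophils carry CD11b too. They are made in stages: early precursors make the azurophil granule proteins such as myeloperoxidase and elastase, later ones the specific granule proteins such as lactoferrin, and mature cells the chemokine receptor CXCR2. In tumor-bearing mice the spleen is known as a site where granulocytes and their precursors gather.

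The neutrophil transcripts of this sort fell into sets that peaked in different 12-month libraries. At 3 months Ltf, Ngp, Cxcr2 and Retnlg were all highest in the second library. The promoters of the genes that stand for 2 of the sets are shown here from RefSeq (GRCm38.p6). Each runs from 250 bases before to 50 bases after the gene's start, 5′ to 3′ on the strand of the gene. Ngp, Ltf, Lcn2 and Camp are specific granule genes whose levels were highest together in the second 12-month library, and Elane, neutrophil elastase, was highest in the first. Capitals mark matches, on either strand, to TTGCNNAA, a form of the site that C/EBP factors bind, and to GAGGAAGT, a form of the PU.1 site. The Ngp promoter lies at chr9:110419558-110419857 on the plus strand, the Ltf promoter at chr9:111019042-111019341 on the plus strand, the Lcn2 promoter at chr2:32387690-32387989 on the minus strand, the Camp promoter at chr9:109849407-109849706 on the minus strand and the Elane promoter at chr10:79886062-79886361 on the plus strand.
Ngp: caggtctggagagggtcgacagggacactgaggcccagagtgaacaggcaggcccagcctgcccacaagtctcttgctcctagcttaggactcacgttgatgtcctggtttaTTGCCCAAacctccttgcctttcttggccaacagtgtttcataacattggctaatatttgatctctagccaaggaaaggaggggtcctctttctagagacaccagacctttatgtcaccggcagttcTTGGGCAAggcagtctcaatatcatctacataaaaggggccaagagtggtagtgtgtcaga
Ltf: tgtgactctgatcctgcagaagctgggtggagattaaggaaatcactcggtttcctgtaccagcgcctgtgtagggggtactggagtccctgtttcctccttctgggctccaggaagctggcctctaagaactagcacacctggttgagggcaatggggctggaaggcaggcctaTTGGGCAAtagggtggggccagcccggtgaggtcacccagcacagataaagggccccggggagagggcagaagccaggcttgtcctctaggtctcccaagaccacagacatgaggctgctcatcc
Lcn2: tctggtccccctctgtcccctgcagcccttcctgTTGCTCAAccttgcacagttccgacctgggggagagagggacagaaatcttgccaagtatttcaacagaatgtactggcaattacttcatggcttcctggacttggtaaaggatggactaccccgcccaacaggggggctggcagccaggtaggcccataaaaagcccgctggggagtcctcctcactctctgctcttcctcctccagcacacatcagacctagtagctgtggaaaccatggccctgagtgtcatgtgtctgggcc
Camp: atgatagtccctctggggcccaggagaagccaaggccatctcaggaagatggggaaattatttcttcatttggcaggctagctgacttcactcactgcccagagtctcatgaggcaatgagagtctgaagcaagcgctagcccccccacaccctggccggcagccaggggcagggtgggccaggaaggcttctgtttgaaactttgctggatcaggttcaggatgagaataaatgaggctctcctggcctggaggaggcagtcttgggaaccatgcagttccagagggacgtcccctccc
Elane: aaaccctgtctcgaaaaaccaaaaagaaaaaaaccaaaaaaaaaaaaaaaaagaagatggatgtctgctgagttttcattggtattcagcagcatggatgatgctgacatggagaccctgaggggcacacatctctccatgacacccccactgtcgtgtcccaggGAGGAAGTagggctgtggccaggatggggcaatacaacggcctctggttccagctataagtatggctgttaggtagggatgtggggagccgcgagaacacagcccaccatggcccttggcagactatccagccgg
The letters TTGCNNAA occurred 2 times in the Ngp window, and 1 time each in those of Ltf and Lcn2. They did not occur in the windows of Camp and Elane, and the Elane window held GAGGAAGT 1 time. Of all 32851 promoter windows of this length in the table, 10.8% held TTGCNNAA and 3.2% held GAGGAAGT. None of these 5 windows held both motifs, and a match is a description of letters, not of a bound site.

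Total counts of the 8 libraries lay between 3291251 and 6661551, with 19549 to 22029 gene symbols detected and 0.817% to 1.47% of counts on mitochondrially encoded genes. Values below are counts scaled to the same total in every library (CPM), listed from replicate 1 to replicate 4, and means are given with the SD over 4 libraries. The 3 antigens of the sort were present in every library. Ptprc, which encodes CD45, spanned 3133 to 3333 CPM in the younger libraries and 2148 to 3674 CPM in the older ones. Itgam, which encodes CD11b, measured 695, 685, 529.8 and 623 CPM at 3 months and 813, 806, 639.6 and 319.8 CPM at 12 months. Adgre1, which encodes F4/80, measured 385, 335, 402 and 394 CPM at 3 months and 371, 249, 240.03 and 363 CPM at 12 months. For none of the 3 did the ages separate, and the log2 fold changes of 12 over 3 months were -0.10 (adjusted p = 0.979), 0.091 (adjusted p = 0.987) and -0.26 (adjusted p = 0.916), all from edgeR.

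Set against their defining markers, the libraries held monocyte and neutrophil transcripts beside those of red pulp macrophages. Per kilobase of annotated exon, Adgre1 ranged from 74.1 to 124 CPM over the 8 libraries and Slc40a1, the iron exporter ferroportin, from 39.7 to 92.4 CPM. The lysozyme gene Lyz2, which does not tell monocytes from other myeloid cells, ranged from 9241 to 14885 CPM per kilobase. Ace, an enzyme of patrolling monocytes, ranged from 29.1 to 73.6. The neutrophil calgranulin S100a9 ranged from 1589 to 11061 CPM per kilobase. The label macrophage is therefore used below for the sort, not for a pure cell type. In such bulk libraries fewer cells of a type and less RNA per cell cannot be told apart.

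No gene passed the threshold between the ages. Of 12131 genes tested, edgeR's quasi-likelihood test called 0 at a Benjamini-Hochberg adjusted p under 0.05 (0% of genes tested), and the smallest adjusted p was 0.502. At an unadjusted p under 0.05 there were 736 genes (6.07%), 450 with the higher mean at 12 months (3.71%) and 286 with the lower (2.36%). The 2 sets of 4 libraries did not overlap for 137 genes that were higher at 12 months (1.13%) and 278 that were lower (2.29%), together 3.42%. The median log2 fold change of all tested genes was 0.0063. DESeq2, which gave an adjusted p to 1546 of the 12131 genes after its own filter on low means, called 12 genes (0.776% of the 1546), 6 in each direction, with adjusted p-values from 0.0386 to 0.0499, and had 833 genes at an unadjusted p under 0.05. Without a low-count filter edgeR called 53 of 34356 genes (0.154%), 46 higher and 7 lower at 12 months, of which 47 were among the 12131 genes of the filtered test. The gene lists below are described by counts at the unadjusted p and by medians, beside these values for all genes.

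**Figure D1:**
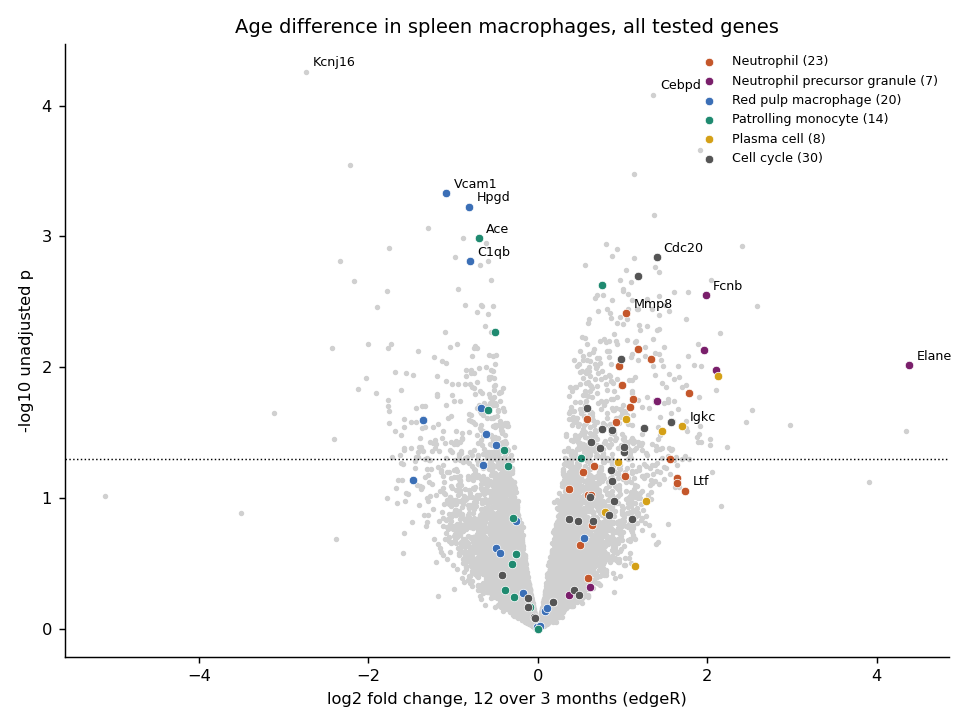
Each point is 1 of the 12131 tested genes, with the log2 fold change of 12 over 3 months on the x axis and the negative log10 of the unadjusted edgeR p on the y axis; colors mark 6 gene lists. Neutrophil, neutrophil precursor and plasma cell genes lie at positive values, most red pulp macrophage genes at negative values, and no gene passed an adjusted p of 0.05.

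Neutrophil transcripts varied between the libraries of each age and had higher means at 12 months. The summed level of the 25 neutrophil genes was 12272, 21276, 10894 and 8333 CPM at 3 months and 20589, 53091, 27228 and 14424 CPM at 12 months. The second library was the highest of each age, and the ages overlapped, since the second 3-month library lay above the first and the fourth 12-month libraries. The means were 13194 ± 5629.8 and 28833 ± 16996 CPM (SD, n = 4). These sums were 0.833% to 2.13% of all counts at 3 months and 1.44% to 5.31% at 12 months. In the 8 libraries of the same sort from the tumors, 4 of each age, the same sum was 1167 to 4609 CPM. Of that sum Slfn4, which also responds to interferon, gave 443 to 3144 CPM. Ltf, Ngp, Camp and Lcn2 together gave 0.709 to 413 CPM there. Of the 25 genes 23 were tested, leaving out Stfa1 and Stfa2, which did not pass the low-count filter. All 23 had a higher mean at 12 months, against 51.0% of all tested genes, 10 of them at an unadjusted p under 0.05, and their median log2 fold change was 0.99. The 12-month libraries were above all 3-month libraries for 3 of the 23, Ly6g, Stfa2l1 and Mrgpra2b, against 1.13% of all tested genes. With 1 library left out at a time 22 or 23 of 23 had the higher mean, with a median of 0.73 to 1.24 and 6 to 20 genes at that p. The count was 6 without the third 12-month library, 19 without the second 3-month library and 20 without the fourth 12-month library. Without both libraries numbered 2, left out after seeing the data, 19 of 23 were at that p, with a median of 1.01.

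The specific granule genes were highest in the second 12-month library. Ltf, lactoferrin, which binds iron, measured 1157, 3198, 704 and 897 CPM at 3 months and 2239, 12633, 2542 and 1795 CPM at 12 months. Ngp, neutrophilic granule protein, measured 1437, 3348, 1204 and 849 CPM and 2516, 12659, 3274 and 2091 CPM. For both genes 1 library lay far above the other 7, and the 3-month library with the highest level overlapped with the older group. Lcn2, which sequesters bacterial siderophores, measured 588, 1259, 491 and 323 CPM at 3 months and 1003, 4231, 1523 and 808 CPM at 12 months. Camp, the cathelicidin antimicrobial peptide, measured 434, 805, 287 and 138 CPM and 437, 2891, 1060.1 and 621 CPM. The log2 fold changes were 1.74 (SE 0.87, edgeR adjusted p = 0.857) for Ltf and 1.64 (adjusted p = 0.842), 1.56 (adjusted p = 0.817) and 1.64 (adjusted p = 0.848) for Ngp, Lcn2 and Camp. Without the second 12-month library these values were 0.61, 0.67, 0.80 and 0.81. Without the second 12-month library the summed level of these 4 genes in the older group lay between 5314 and 8399.9 CPM, against 2208 to 8611 CPM at 3 months. Ly6g, the surface antigen used to stain neutrophils, measured 43.4, 47.6, 23.1 and 30.3 CPM at 3 months and 49.5, 294, 83.9 and 49.2 CPM at 12 months, for a log2 fold change of 1.79 (SE 0.60, edgeR adjusted p = 0.751), or 0.81 without that library.

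Genes of mature neutrophils peaked in another library. Cxcr2, the receptor that draws mature neutrophils out of the marrow, measured 532, 777, 489.97 and 385 CPM at 3 months and 812, 577, 1136 and 507 CPM at 12 months. Retnlg, resistin-like gamma, measured 404, 628, 362 and 216 CPM and 651, 647, 1209.9 and 421 CPM. For both, the third 12-month library was the highest of the 8 and the fourth lay within the 3-month range. Over the 23 tested neutrophil genes, 12 were highest in the second 12-month library, 10 in the third and 1, the cytokine receptor gene Csf3r, in the first. Those highest in the third also included the gelatinase Mmp9, at 860.5, 1393, 723 and 659 CPM at 3 months and 1909.9, 1882, 2168 and 819.7 CPM at 12 months, and the decoy interleukin-1 receptor Il1r2, at 334, 454, 338 and 189 CPM and 559.99, 399.7, 814 and 180.01 CPM. Their log2 fold changes of 12 over 3 months were 0.53 (adjusted p = 0.838) for Cxcr2, 0.92 (adjusted p = 0.784) for Retnlg, 0.96 (adjusted p = 0.736) for Mmp9 and 0.64 (adjusted p = 0.92) for Il1r2, from edgeR. Without the third 12-month library those of Cxcr2, Retnlg and Il1r2 were 0.26, 0.56 and 0.27. At 3 months, 15 of the 23 genes had their lowest level of all 8 libraries in the fourth library.

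The calgranulins S100a8 and S100a9, calcium-binding proteins that neutrophils hold in bulk and monocytes also make, were high in both of these libraries. S100a8 measured 1098, 1845, 1204 and 521 CPM at 3 months and 1501, 3456, 2988 and 1601 CPM at 12 months, and S100a9 1633, 2856, 1785 and 829.7 CPM and 2501, 5774, 4234 and 2409.5 CPM. Mmp8, neutrophil collagenase, measured 314, 346, 200.3 and 279.8 CPM and 611, 914, 432 and 296 CPM. Its log2 fold change was 1.05 (SE 0.30, edgeR adjusted p = 0.698), and it was 1 of the 12 genes DESeq2 called (adjusted p = 0.0499). The fourth 12-month library, at 296 CPM, lay inside the 3-month range of Mmp8. The remaining neutrophil genes ranged in log2 fold change from 0.37 for Ifitm6 to 1.33 for Wfdc21.

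The transcripts of early neutrophil precursors were low in the 3-month libraries and highest in the first 12-month library or the second. The list of 9 precursor genes summed to 55.9, 75.6, 56.4 and 30.2 CPM at 3 months and 315, 355, 77.8 and 184 CPM at 12 months, and the ages did not overlap, with 77.8 CPM in the lowest older library and 75.6 CPM in the highest younger one. Mpo, myeloperoxidase, measured 1.52, 0, 0 and 0.6 CPM at 3 months and 105, 3.27, 0.304 and 24.5 CPM at 12 months and did not pass the low-count filter. Elane measured 1.82, 2.8, 0 and 1.95 CPM and 79.4, 16.7, 0 and 38.6 CPM, for a log2 fold change of 4.38 (SE 1.31, edgeR adjusted p = 0.736), and was at 0 in 1 library of each age. Both azurophil granule genes were highest in the first and the fourth 12-month libraries, neither of which led the specific granule genes. Fcnb, ficolin B, a lectin of granulocyte precursors, measured 27, 38.1, 33.9 and 11.3 CPM and 68.8, 222, 46.2 and 79 CPM, for a log2 fold change of 1.98 (SE 0.51, edgeR adjusted p = 0.698), with no overlap between the ages. Cebpe, the transcription factor that drives specific granule genes, measured 4.25, 7.97, 3.21 and 1.65 CPM and 9.04, 38.2, 10.9 and 4.94 CPM and was highest where Ltf was. Of the 7 tested genes of the list, 7 had the higher mean at 12 months, 5 at an unadjusted p under 0.05, with a median log2 fold change of 1.96. Elane and Ms4a3 were near the floor in most 3-month libraries. Their passing of the low-count filter, and so their place in this tally, rested largely on the 12-month libraries. Without the second 12-month library the median was 1.29, with 3 of 7 genes at that p, and the log2 fold change of Fcnb was 1.29. In tumor macrophage libraries the precursor sum was 1.28 to 12.3 CPM.

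**Figure D2:**
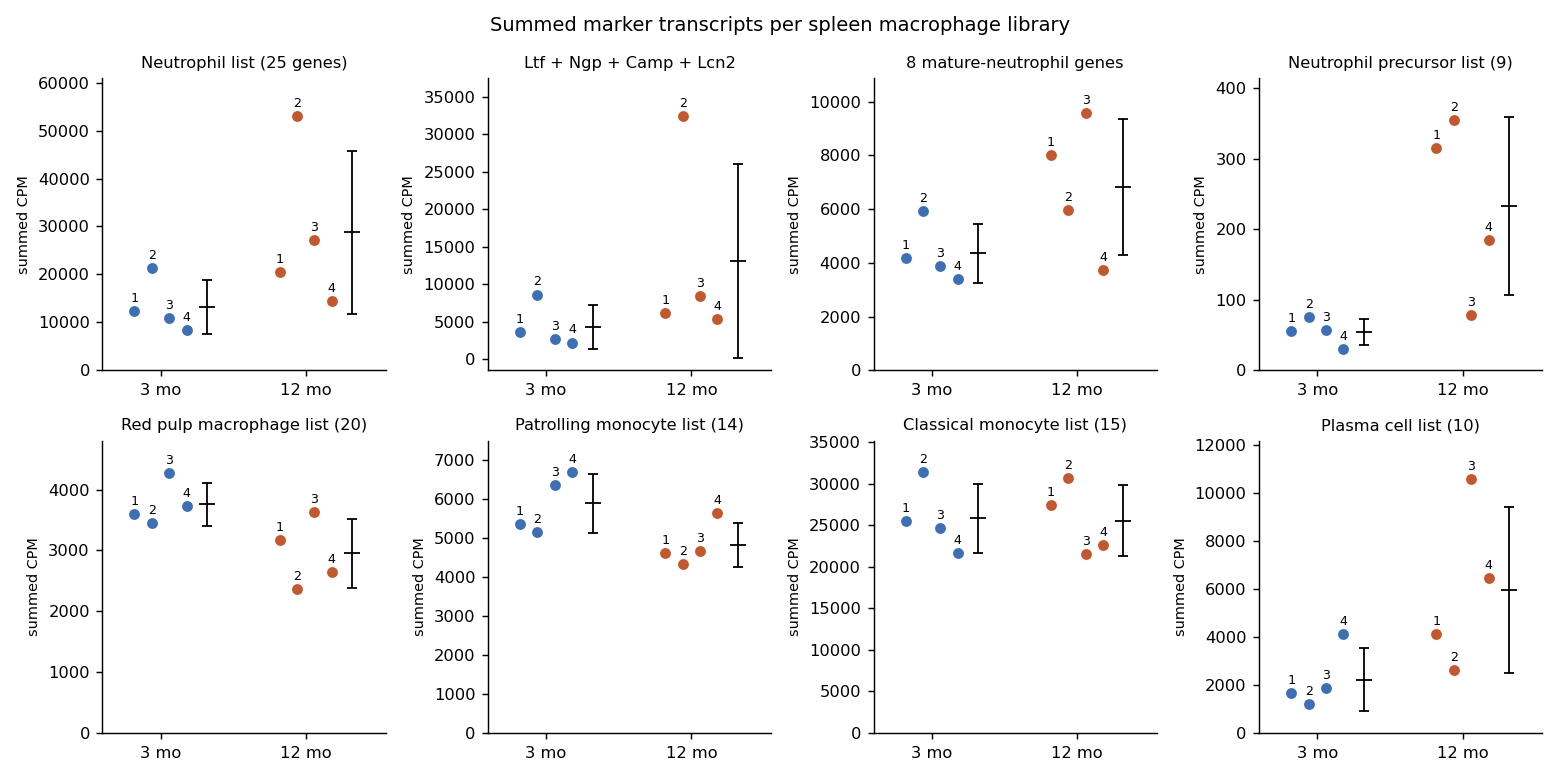
Each panel shows the summed CPM of a marker list on the y axis in the 4 libraries of each age, numbered by replicate; black marks are the mean and the SD. The second 12-month library stands at 32414 CPM for the sum of Ltf, Ngp, Camp and Lcn2, and the first 2 are highest for precursor genes. The third 12-month library is highest for 8 mature neutrophil genes. That set was chosen after seeing the data, and most of its genes peak in that library, so its peak is no separate result. Red pulp sums overlap between the ages.

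Most transcripts of red pulp macrophages had lower means at 12 months. Vcam1, the adhesion molecule VCAM-1, which marks red pulp macrophages (chromosome 3, 116109949 to 116129688, minus strand, GENCODE M21 on GRCm38), measured 292, 244, 347 and 343 CPM at 3 months and 139.9, 133, 203 and 79.2 CPM at 12 months. Every older library lay below every younger one. The means were 307 ± 48.8 and 139 ± 50.6 CPM (SD, n = 4), and the log2 fold change was -1.08 (SE 0.24, edgeR adjusted p = 0.698). Hpgd, which breaks down prostaglandins, measured 385, 342, 457 and 337 CPM and 227, 140.01, 210.3 and 259.7 CPM, again with no overlap, and had a log2 fold change of -0.81 (SE 0.19, edgeR adjusted p = 0.698). C1qb, a chain of the first complement component that tissue macrophages make, measured 171, 146, 215 and 167 CPM and 107, 76.4, 127 and 73.8 CPM and had a log2 fold change of -0.80 (SE 0.21, edgeR adjusted p = 0.698). DESeq2 called all 3 lower at 12 months, with adjusted p-values of 0.0386, 0.0489 and 0.0499.

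Other red pulp genes had lower means without separating the ages completely. C1qa measured 92, 103, 128 and 86.6 CPM at 3 months and 55.2, 47.8, 101 and 42.4 CPM at 12 months. Cd163, the scavenger receptor for hemoglobin bound to haptoglobin, measured 23.4, 16.2, 29.1 and 38.9 CPM and 14.5, 3.65, 20.1 and 2.47 CPM, so the second and the fourth older libraries were well below the rest. Hmox1, heme oxygenase 1, measured 482, 304, 637 and 325 CPM and 304, 179, 379 and 231 CPM. Spic, which encodes Spi-C, measured 50.4, 29.3, 97.2 and 48.2 CPM and 39.5, 25.5, 41.6 and 30.8 CPM, with the third younger library highest for both Spic and Hmox1. The log2 fold changes of C1qa, Cd163, Hmox1 and Spic were -0.68 (adjusted p = 0.761), -1.35 (adjusted p = 0.784), -0.61 (adjusted p = 0.817) and -0.65 (adjusted p = 0.832) by edgeR. Without the third 3-month library those of Hmox1 and Spic were -0.37 and -0.25, and without the third 12-month library that of C1qa was -1.02. Slc40a1 had nearly equal means, at 664, 687, 532 and 603 CPM and 798, 526, 832 and 358 CPM, for a log2 fold change of 0.081 (adjusted p = 0.989). Of the 20 red pulp genes, all tested, 16 had the lower mean at 12 months, against 49.0% of all tested genes, and 7 were lower and 0 higher at an unadjusted p under 0.05. Their median log2 fold change was -0.47. With 1 library left out at a time the median ranged from -0.59 to -0.21, with 14 to 17 of 20 genes lower and 3 to 8 lower at that p. The median was -0.21 without the third 3-month library, with 3 genes at that p, and -0.29 without the fourth, with 5. Without the second 12-month library 4 genes were at that p. The list summed to 3596, 3447, 4265 and 3726 CPM at 3 months and 3173, 2364, 3631 and 2641 CPM at 12 months, and the ages overlapped. The same sum was 6591 to 13060.5 CPM in the tumor macrophage libraries. There C1qb lay at 2207 to 6343 CPM and C1qa at 1140 to 3099 CPM. Spic was at 0 to 4.06 CPM, Hpgd at 1.76 to 13.5 CPM and Slc40a1 at 3.07 to 52.5 CPM. The tumor sum is therefore no measure of red pulp macrophages.

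Several genes outside the red pulp list, chosen after their values were seen, also had lower levels at 12 months. Itgad, the integrin CD11d, which splenic red pulp macrophages carry, measured 59.8, 40.9, 51.8 and 75.4 CPM at 3 months and 21.4, 13.6, 37.7 and 16.8 CPM at 12 months, for a log2 fold change of -1.30 (SE 0.31, edgeR adjusted p = 0.698). Fcna, ficolin A, a macrophage lectin, measured 118, 84.4, 155 and 99.98 CPM and 75.8, 42.8, 76.6 and 47.1 CPM, for a log2 fold change of -0.85 (adjusted p = 0.698). The transporter gene Slco2b1 measured 5.47, 13.1, 21.3 and 13.4 CPM and 2.36, 2.3, 3.04 and 3.37 CPM, and the potassium channel gene Kcnj16 14.3, 15.7, 11.9 and 10.5 CPM and 3.14, 1.92, 0.608 and 1.57 CPM. For each of these 4 genes all older libraries lay below all younger ones. Kcnj16 had the smallest p of all genes, with a log2 fold change of -2.74 (SE 0.49, edgeR adjusted p = 0.502). Lrp1, a receptor that takes up apoptotic cells and heme bound to hemopexin, measured 541, 457, 519.5 and 397 CPM and 375, 284, 373 and 238 CPM without overlap, for a log2 fold change of -0.53 (adjusted p = 0.736). The list of receptors and bridging proteins for apoptotic cell uptake had 12 of 17 tested genes lower at 12 months, 5 of them at an unadjusted p under 0.05 and 1 higher at that p, with a median log2 fold change of -0.43. When single libraries were left out 1 to 5 were lower at that p, 1 without the third 3-month library, 2 without the fourth, and 2 and 3 without the second and the third 12-month libraries. The median was -0.29 without the third 12-month library. Of 20 tested iron and heme genes 13 were lower, 3 at that p, with a median of -0.17. Their median was -0.079 without the third 3-month library, with 1 gene at that p. The count was also 1 without the second 12-month library, and it was 5 without the first.

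**Figure D3:**
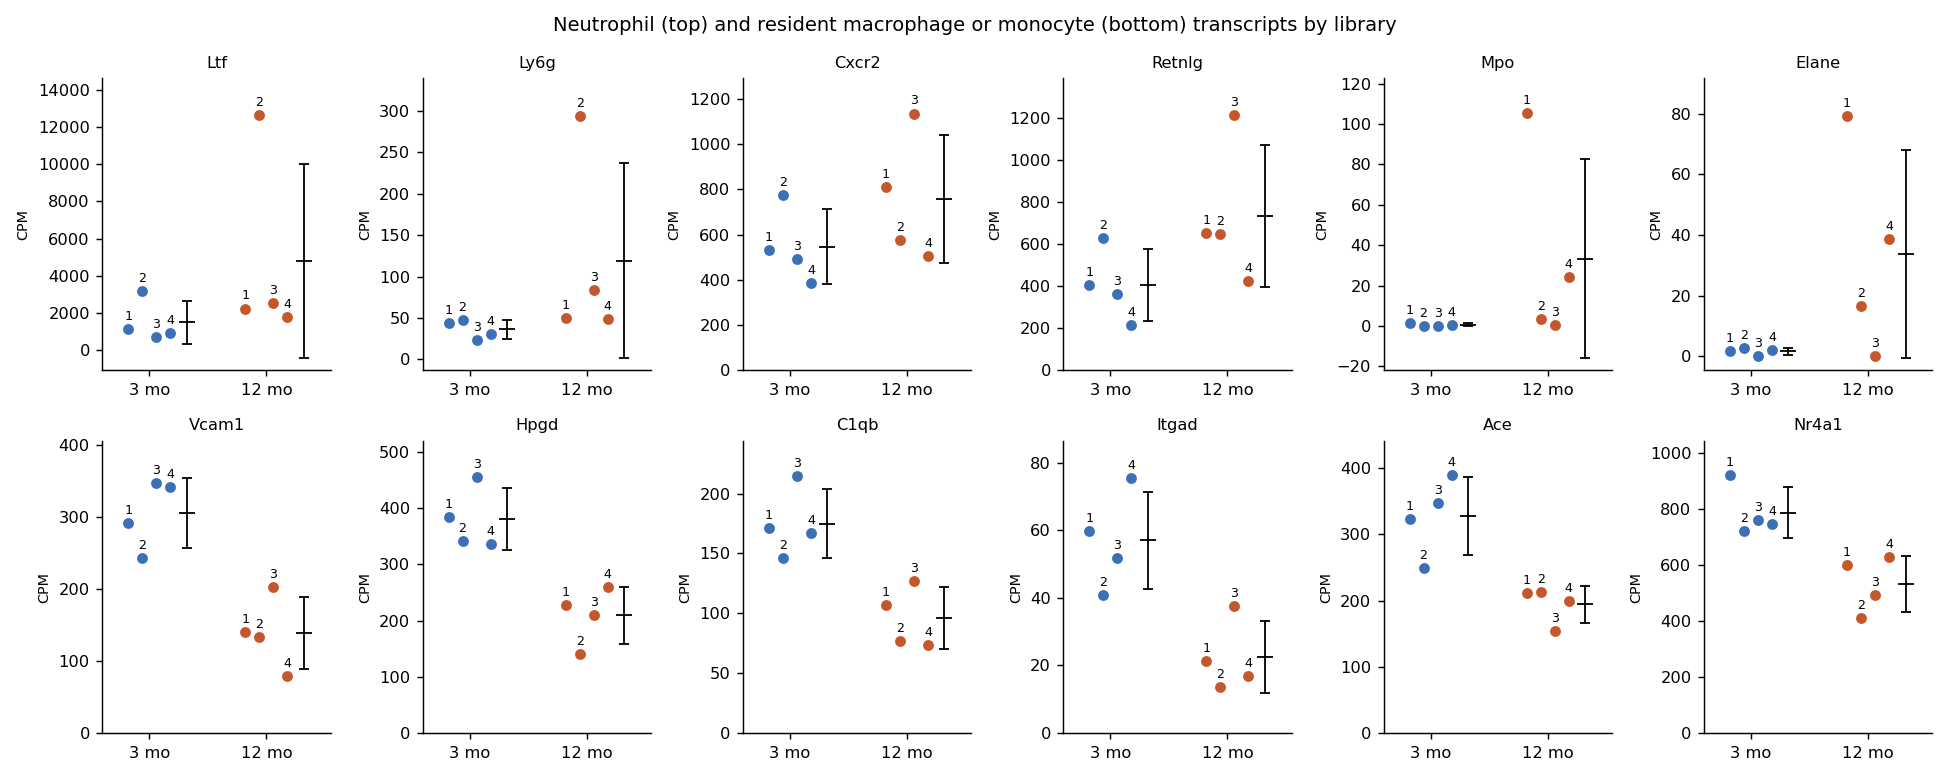
CPM (y axis) of 12 genes in the 4 libraries of each age, numbered by replicate, with the mean and SD in black. Ltf and Ly6g are highest in the second older library, Cxcr2 and Retnlg in the third, Mpo and Elane in the first, while Vcam1, Hpgd, C1qb, Itgad, Ace and Nr4a1 are lower in every older library than in every younger one.

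Most patrolling monocyte genes had lower means at 12 months. Ace measured 323, 249, 348 and 389 CPM at 3 months and 211, 213, 154 and 199 CPM at 12 months, for a log2 fold change of -0.69 (SE 0.17, edgeR adjusted p = 0.698), and DESeq2 called it (adjusted p = 0.0499). Nr4a1, the transcription factor patrolling monocytes need, measured 922, 723, 759 and 746 CPM and 599, 409, 492 and 627 CPM, for a log2 fold change of -0.51 (adjusted p = 0.736). Itgal, the integrin CD11a, measured 1369.8, 1321, 1508 and 1523 CPM and 1288, 1018, 1224 and 775 CPM. For these 3 genes the ages did not overlap. Spn, the sialophorin CD43, measured 189.8, 155, 201 and 157 CPM and 67, 91.6, 131 and 163 CPM, and Adgre4, which patrolling monocytes carry, 580.4, 599.9, 924 and 927 CPM and 637, 508, 514 and 555 CPM, both with overlap. Cx3cr1, the fractalkine receptor, had a log2 fold change of -0.30 (adjusted p = 0.916). The tetraspanin gene Cd9, which is in the same list, was in the other direction, at 228, 292, 315 and 224 CPM and 278, 390.3, 565 and 494 CPM, for a log2 fold change of 0.76 (adjusted p = 0.698). Of 14 tested genes 11 were lower, 4 lower and 2 higher at an unadjusted p under 0.05, and the median was -0.30. With 1 library left out at a time the median ranged from -0.55 to -0.18, with 2 to 7 genes lower and 1 to 2 higher at that p. It was -0.55 without the fourth 12-month library, with 7 lower at that p, and -0.18, -0.19 and -0.20 without the first 12-month, the third 12-month and the fourth 3-month library. Without the second 12-month library or the third 3-month library 2 were lower at that p. The list summed to 5356, 5147, 6345 and 6679 CPM at 3 months and 4614, 4341, 4659.9 and 5639 CPM at 12 months.

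Classical monocyte genes were split between higher and lower means without a covariate. Lyz2 measured 16345, 19589, 15898 and 13896 CPM at 3 months and 16552, 17488, 12161 and 15207 CPM at 12 months, for a log2 fold change of -0.043 (adjusted p = 0.991). Ccr2, the chemokine receptor of classical monocytes, measured 1261, 1229, 857 and 779.8 CPM and 1196, 797, 647 and 622 CPM, and Ly6c2, their Ly6C antigen, 255, 302, 273 and 277 CPM and 180.2, 578, 188 and 238 CPM. The second older library was highest for Ly6c2. Hp, haptoglobin, which neutrophils express too, had a log2 fold change of 0.43 (adjusted p = 0.817). Of 15 tested genes 8 were higher and 7 lower, 2 and 0 at an unadjusted p under 0.05, with a median of 0.089. The median ranged from -0.11 to 0.26 with each library left out in turn, and was below 0 without the first or the second 12-month library and without the third or the fourth 3-month library. Csf1r, the receptor for the growth factor of monocytes and macrophages, had a log2 fold change of -0.16 (adjusted p = 0.962).

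The neutrophil sum was then entered as a covariate, as the log2 of the 25-gene sum. With it edgeR called 0 genes for age, with 586 at an unadjusted p under 0.05 (4.83%). Of the 450 genes higher at 12 months at that p, 438 kept their sign and 146 their p under 0.05, and their median log2 fold change went from 0.85 to 0.67. Of the 286 lower genes 284 kept their sign and 113 their p, and their median stayed at -0.69. The neutrophil sum had the higher mean at 12 months, so age and covariate overlap in these libraries. Some SEs grew with it, as that of Vcam1 did from 0.24 to 0.36. Why genes lost that p was not tested. The list of 23 neutrophil genes went from a median of 0.99 to 0.17, which the covariate fixes in part because it is built from them. Vcam1 went from -1.08 to -1.17 (SE 0.36), C1qb from -0.80 to -0.71 (SE 0.29), Ace from -0.69 to -0.57 (SE 0.24) and Kcnj16 from -2.74 to -2.88 (SE 0.64). Hpgd went from -0.81 to -0.51 (SE 0.21), Itgad from -1.30 to -0.94 (SE 0.43) and Spic from -0.65 to -0.22 (SE 0.44). The median of the red pulp list was -0.29 with the covariate, with 14 of 20 genes lower, 4 at an unadjusted p under 0.05. That of the patrolling monocyte list was -0.066, with 8 of 14 lower, 1 lower and 2 higher at that p. Of the 15 classical monocyte genes 13 were lower with the covariate, 0 at that p, with a median of -0.24. Among them Cd177 is also in the neutrophil list that makes the covariate, and went from 1.03 to -0.11. Treml4 is in both the red pulp and the patrolling monocyte lists, so those lists are not separate. The lists of apoptotic cell uptake and of iron and heme had medians of -0.32 and -0.071, with 2 and 1 genes lower at that p. The precursor median went from 1.96 to 0.91, with 5 of 7 genes higher and 3 at that p, where Elane went from 4.38 to 4.84 (SE 1.58) and Cebpe from 1.96 to 0.078 (SE 0.47). A second covariate, chosen after seeing the data, was the log2 sum of 8 genes of mature neutrophils, among them Cxcr2, Csf3r, Retnlg and Mmp9. With it the red pulp median was -0.50, with 16 of 20 genes lower and 8 at an unadjusted p under 0.05. The patrolling monocyte median was -0.041 and the precursor median 1.48. Of the classical monocyte genes 10 of 15 were lower, 4 at that p and 0 higher at that p, with a median of -0.14. Of the iron and heme genes 16 of 20 were lower, 8 at that p, with a median of -0.39, and of the genes of apoptotic cell uptake 13 of 17 were lower, 3 at that p.

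**Figure D4:**
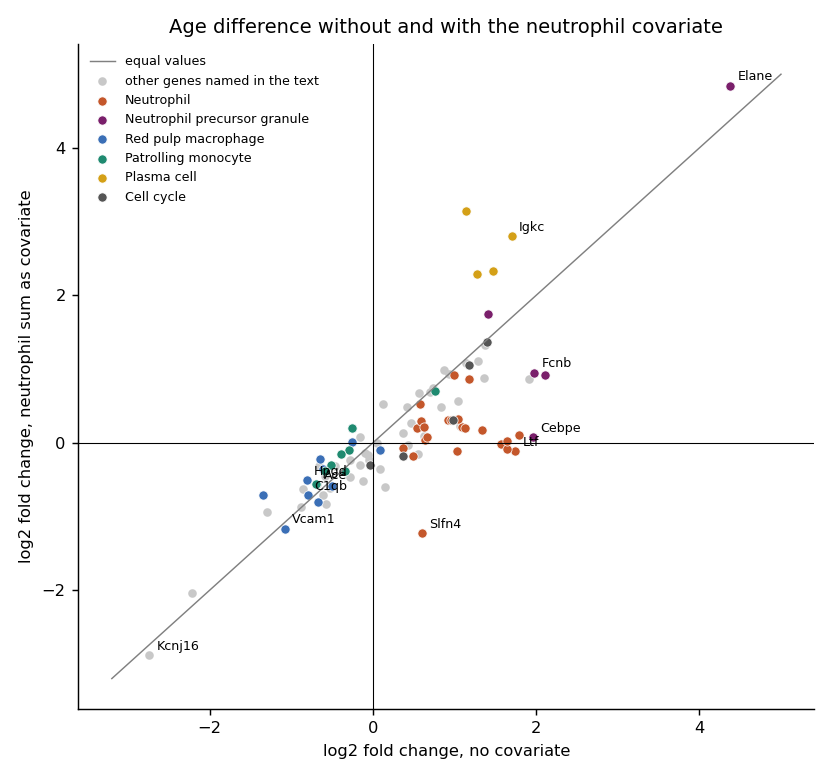
Log2 fold change of 12 over 3 months without (x axis) and with (y axis) the neutrophil sum as covariate, for the genes named in the text; colors mark their lists and the diagonal marks equal values. The neutrophil list has a median of 0.17 on the y axis, as the covariate is built from it, and Slfn4 lies at -1.23, while Vcam1, Kcnj16 and Elane stay near the diagonal.

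By edgeR the slope on the 25-gene covariate itself was called for 18 genes (0.148% of genes tested), all positive. Of these 18, 9 belonged to the 2 neutrophil lists. All of those 9 except Cebpe are part of the 25-gene sum, so the covariate fixes their slopes in part. The other 9 included Abca13, Adpgk, Syne1, Lta4h, Olfml2b, Ncam1, Anxa1 and Chil1, a chitinase-like protein of neutrophil granules. Chil1 measured 127, 185, 89.8 and 108 CPM at 3 months and 207, 416, 243 and 156 CPM at 12 months. It was among the 6 genes DESeq2 called higher at 12 months (adjusted p = 0.0499), and its edgeR log2 fold change went from 1.06 to 0.23 (SE 0.21) with the covariate.

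The other genes DESeq2 called were Ier2, Iqsec1, Entpd1 and Sgms2, which had higher means at 12 months, and Pip4k2a and Nfkb1, which had lower ones. Ier2, an immediate early gene, measured 222, 421, 449 and 556 CPM at 3 months and 812, 742, 882 and 586 CPM at 12 months, and Entpd1, the ectonucleotidase CD39, 122, 188, 152 and 178 CPM and 319, 177, 373 and 260.1 CPM. Nfkb1, a subunit of NF-kB, measured 507, 425, 467 and 468 CPM and 284, 242, 358 and 313 CPM, with no overlap. Pip4k2a, a lipid kinase, measured 238, 279, 243 and 214 CPM and 165, 156, 139 and 154 CPM, also with no overlap. Their log2 fold changes with the neutrophil covariate were 0.93 (SE 0.33) for Ier2, 0.99 (SE 0.29) for Entpd1, -0.46 (SE 0.20) for Nfkb1 and -0.71 (SE 0.20) for Pip4k2a. Sgms2 went from 1.05 to 0.57 (SE 0.33) and Iqsec1 from 0.56 to 0.67 (SE 0.19). Cebpd, the transcription factor C/EBP delta, which had the second smallest p by edgeR, measured 28.6, 48.9, 36.2 and 47.4 CPM and 77, 149, 95.7 and 78.3 CPM, for a log2 fold change of 1.36 (SE 0.25, edgeR adjusted p = 0.502), and of 0.88 (SE 0.29) with the covariate. Traf3, an adaptor that restrains NF-kB signaling, measured 72.9, 71.9, 83.9 and 90.4 CPM and 54.6, 45.7, 30.4 and 35.2 CPM, for a log2 fold change of -0.88 (adjusted p = 0.698). Ly75, the endocytic receptor DEC-205, measured 13.4, 13.8, 6.65 and 10.1 CPM and 28.3, 71.8, 38.3 and 19.3 CPM, and Marcksl1 17.3, 19.2, 23.6 and 30.8 CPM and 48.7, 59, 45.6 and 40 CPM, both higher in every older library. With the covariate Ly75 went from 1.91 to 0.86 (SE 0.38) and Marcksl1 from 1.14 to 1.08 (SE 0.35). The immediate early list that holds Ier2 was mixed without a covariate. Of its 21 tested genes 12 were higher and 9 lower, 1 and 2 at an unadjusted edgeR p under 0.05. With the mature neutrophil covariate 17 of the 21 were lower, 6 lower and 1 higher at that p.

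Among cytokines, the interleukin-1 genes had higher means at 12 months. Il1b measured 1325, 1745, 1500.2 and 1258 CPM at 3 months and 2825, 1395, 3277 and 1829 CPM at 12 months, so that the first and the third older libraries were above all others, and its log2 fold change was 0.74 (SE 0.23, edgeR adjusted p = 0.736). Il1rn, the interleukin-1 receptor antagonist, measured 81.1, 167, 131 and 72.1 CPM and 219, 167, 248 and 138 CPM, for a log2 fold change of 0.84 (adjusted p = 0.736). Il18 was in the other direction, at 43.4, 48.9, 49.3 and 34.1 CPM and 32.6, 20.6, 18.8 and 32.8 CPM. Of 12 tested cytokine genes 9 were higher at 12 months, 4 higher and 1 lower at an unadjusted p under 0.05, with a median of 0.33. With the neutrophil covariate the median was 0.19, with 2 higher at that p, and with the mature neutrophil covariate 0 were higher and 2 lower at that p. Without the first 3-month or the first 12-month library 2 were higher at that p. Subunits of the NADPH oxidase, which makes superoxide in neutrophils and macrophages, had 7 of 8 tested genes higher, 4 at that p. Ncf1 measured 475, 617, 398 and 348 CPM and 606, 810.3, 824 and 472 CPM and Ncf4 273, 366, 309.8 and 263 CPM and 375, 409, 459 and 370.4 CPM, while the catalytic subunit gene Cybb had a log2 fold change of 0.049 (adjusted p = 0.991). With the covariate the oxidase median went from 0.42 to 0.11, and 0 of 8 genes kept an unadjusted p under 0.05. With the mature neutrophil covariate the oxidase median was 0.22, with 1 higher and 1 lower at that p. Without the first 3-month, the third 3-month or the second 12-month library 2 of 8 were at that p.

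Most cell cycle genes had higher means at 12 months, with the highest levels in the second and the fourth older libraries. Of 30 genes, all tested, 25 were higher, 12 at an unadjusted p under 0.05, with a median of 0.70, and 18 had their highest level in the second older library and 9 in the fourth. Cdc20, an activator of the anaphase-promoting complex, measured 6.99, 9.48, 14.7 and 12.3 CPM at 3 months and 21, 39.6, 14.6 and 36.1 CPM at 12 months, for a log2 fold change of 1.40 (SE 0.36, edgeR adjusted p = 0.698). Aurkb, a mitotic kinase, measured 10.6, 14.9, 12.6 and 20.1 CPM and 28.3, 45.3, 18.5 and 35.5 CPM, and Mki67, a proliferation marker, 67.7, 123, 88.2 and 73.3 CPM and 78.4, 159, 106 and 95.6 CPM. Without the second older library the median was 0.55 and 2 of 30 genes had that p, without the fourth 6 did, and without the first younger library 4. With the neutrophil covariate the median was 0.39, with 6 of 30 at that p, and with the mature neutrophil covariate 0.92, with 16.

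Immunoglobulin transcripts, which come from B and plasma cells, were also higher in mean at 12 months. Igkc, the kappa constant region, measured 228, 169, 724 and 653 CPM at 3 months and 977, 592, 2587 and 1395 CPM at 12 months, and Ighm, the IgM heavy chain, 1302, 935, 889 and 3025 CPM and 2879, 1807, 7260.2 and 4358 CPM. The third older library was the highest for both and the ages overlapped. The log2 fold changes were 1.70 (SE 0.63, edgeR adjusted p = 0.787) and 1.47 (adjusted p = 0.804). Jchain, which joins IgM pentamers, measured 10.3, 17.9, 168 and 288 CPM and 193, 116, 509.8 and 213 CPM. Of 10 plasma cell genes 8 were tested, all 8 higher at 12 months and 4 at an unadjusted p under 0.05, with a median of 1.21. Over the fits that each left out 1 library the median ranged from 1.01 to 1.74 and the count at that p from 0 to 7, being 0 without the fourth older library, 2 without the third, 1 without the first younger library and 7 without the first older one. With the neutrophil covariate the median was 2.31, and with the mature neutrophil covariate 1.39. In the tumor libraries Igkc lay at 0 to 1.18 CPM.

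The values of the type I interferon list moved with the libraries and covariates used. Of 25 tested genes 19 were lower at 12 months, 2 at an unadjusted p under 0.05, and the median was -0.13. The summed level was 4371, 3621, 4220.2 and 4688 CPM at 3 months and 3233, 5581, 3134 and 3091 CPM at 12 months, so the second older library was the highest of the 8 and the other 3 older libraries lay below all younger ones. Without that library all 25 genes were lower at 12 months, 11 at an unadjusted p under 0.05, with a median of -0.50. Without the second 3-month library the median was -0.26, and without the third or the fourth 12-month library or the fourth 3-month library it was -0.053, -0.0058 and -0.023, with 0, 1 and 0 genes lower at that p. With all 8 libraries and the neutrophil covariate the median was -0.52, with 25 of 25 lower and 3 at that p. With the mature neutrophil covariate it was -0.028, with 13 of 25 lower and 0 at that p. Irf7, the factor that amplifies the interferon response, measured 219, 221, 216 and 347 CPM and 214, 378, 125 and 167 CPM, and Ifit3, an interferon-induced antiviral gene, 38.6, 16.8, 47.4 and 83.9 CPM and 43.4, 155, 23.7 and 40.4 CPM. Slfn4, an interferon-responsive gene of myeloid cells that is also in the neutrophil list, measured 494, 367, 385 and 449 CPM and 406, 1451, 477 and 108 CPM, with the same library highest. Ctss and H2-Ab1, 2 abundant genes of antigen presentation, had log2 fold changes of -0.28 (adjusted p = 0.817) and 0.12 (adjusted p = 0.979). The MHC class II list had a median of 0.13 over 12 tested genes, with 1 higher and 1 lower at an unadjusted p under 0.05.

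**Figure D5:**
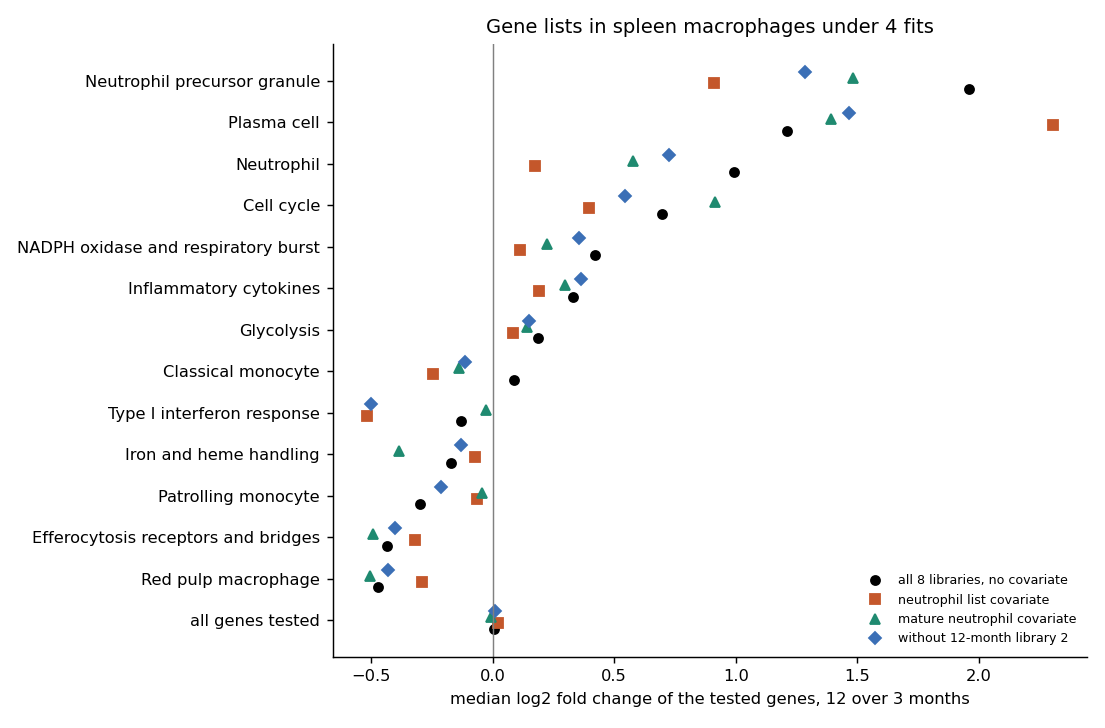
Median log2 fold change of 12 over 3 months (x axis) for 13 gene lists and for all tested genes (y axis), under 4 fits marked by shape. The neutrophil list lies at 0.17 with the covariate, the type I interferon list at -0.50 without the second 12-month library and at -0.028 with the mature neutrophil covariate, and the red pulp list lies below 0 in each fit.

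To ask whether the age difference in the spleen was unlike that in the tumor, an age by tissue interaction was fitted over the 16 macrophage libraries. EdgeR called 0 of 12876 genes (0%), with 619 at an unadjusted p under 0.05 (4.81%), and DESeq2 called 1, Camp, of 12864 genes given an adjusted p (0.00777%). Camp was at 0 CPM in 7 of the 8 tumor libraries and at 31.7 CPM in the other, and no size is given for its interaction. Some genes had a more positive log2 fold change with age in spleen than in tumor. Those with the smallest p were Gpr84, a receptor for medium-chain fatty acids, Sc5d, of cholesterol synthesis, and Cd226. Cd226 had a log2 fold change of -0.063 in spleen, and its interaction rests on 0 CPM in every 12-month tumor library. Gpr84 measured 4.25, 4.74, 9.17 and 4.65 CPM and 11.2, 15.4, 15.8 and 11.2 CPM in spleen, below its 42.4 to 120 CPM in tumor. The interaction of Gpr84 was 1.93 (SE 0.43, edgeR adjusted p = 0.945). Sc5d measured 65.6, 68.3, 56.6 and 67.1 CPM and 97.3, 81, 136 and 88 CPM in spleen, and its interaction was 1.07 (SE 0.28, edgeR adjusted p = 0.945). Toward a more negative log2 fold change in spleen than in tumor, the genes with the smallest p were Slc14a1, Bmt2 and Clcn3. The interactions were -3.31 (SE 0.74, edgeR adjusted p = 0.945) for Slc14a1 and -0.95 (SE 0.23, edgeR adjusted p = 0.945) for Clcn3. In tumor Slc14a1 was near the floor, at 0.218 to 4.53 CPM, and its log2 fold change in spleen was -0.66. Bmt2 had tumor means of 7.94 CPM at 3 months and 18.3 CPM at 12 months, and a log2 fold change of -0.57 in spleen. Vcam1 ranged from 20.8 to 103 CPM in tumor macrophages, and its interaction was -1.81 (SE 0.48, edgeR adjusted p = 0.945). Without the low-count filter edgeR called 5 of 36579 genes (0.0137%) for the interaction, Gpr84 (adjusted p = 0.00221), Cxcr3 (adjusted p = 0.00371), Vcam1 (adjusted p = 0.00392), Clec5a (adjusted p = 0.0158) and Cd226 (adjusted p = 0.035), and with the filter but without the third 12-month tumor library it called 1, Steap4 (adjusted p = 0.0269). With the filter and all 16 libraries no gene passed the threshold by edgeR.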

How the data were processed

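Macrophage libraries of 1000 double-sorted cells were made with Smart-seq2. Per the submitters' processing notes, reads were mapped with STAR 2.5.3 to mm10 and assigned with featureCounts; annotation release, strand and multimapping settings: not given in the sources used here. The authors deposited 1 table of raw read counts (49480 symbols, 74 libraries), mapped to samples by column name. Counts were tested with edgeR 4.0.16 (R 4.3.3; filterByExpr, TMM, robust quasi-likelihood, Benjamini-Hochberg over all tested genes, threshold 0.05), fitted on the 8 spleen libraries, and on 16 macrophage libraries for the interaction. SEs are the fold change over the root of F. DESeq2 1.42.0 and a fit with the log2 neutrophil CPM sum as covariate were alternatives. The code was tested on simulated counts. The members and the 55 gene lists were chosen with earlier results of these data known. Named genes were to be the extremes among called genes (the filtered edgeR fit called none), the sort antigens, the neutrophil list, up to 2 abundant members of a list and the 3 smallest interaction p-values in each direction; all others, and genes with the smallest age p, were chosen after their values were seen. Library pairs of 1 age were not duplicates: the lowest chi-square per degree of freedom was 11.3 over 12 pairs. Names came from the table, 46891 of them matched in the reference; lengths came from GENCODE M21.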

Additional observations from a re-analysis of the deposited data

Results flagged for a closer look

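Within each age, 1 library can lie apart from the other 3 by more than Dixon's 95% critical value for 4 samples, which chance gives in about 1 of 20 groups. It did so in 17 of 244 groups checked, or 6.97%. In the second 12-month library Ltf (12633 CPM), Ngp (12659 CPM), their sum with Camp and Lcn2 (32414 CPM), Ly6g (294 CPM), Ifitm6 (388 CPM), Ly6c2 (578 CPM), Ifit3 (155 CPM) and the summed type I interferon genes (5581 CPM) lay above the other older libraries, and the summed conventional dendritic cell genes (302 CPM) below. In the fourth 12-month library Treml4 (595 CPM) lay above, and in the first Stfa2 (0.786 CPM), a gene with 0 counts in the other 3. In the fourth 3-month library Irf7 (347 CPM), the summed T cell genes (207 CPM) and the summed NK cell genes (395 CPM) lay above the other younger libraries. In the third 3-month library Gpr84 (9.17 CPM) and the summed erythroid genes (220 CPM) did, and in the second Ms4a3 (9.05 CPM), a gene of granulocyte precursors.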

How the results depend on the processing

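The age test called 0 genes with DESeq2's size factors, with all 4 macrophage groups in one fit, with the neutrophil list as covariate, with that covariate and the replicate block, with neutrophil genes removed before scaling, and, in alternatives chosen after seeing the data, with the mature neutrophil covariate, without both libraries numbered 2 and with only genes of at least 10 CPM. It called 53 genes without the low-count filter, 12 by DESeq2 and 6 with the replicate block. Leaving out each of the 8 libraries in turn gave 0 calls, with 524 to 1013 genes at an unadjusted p under 0.05, and a smallest adjusted p of 0.0667. The interaction called 5 genes without the filter, 1 by DESeq2 and 0 to 1 with 1 library left out, the 1 without the third 12-month tumor library; it called 0 with the replicate block. Pairing of the libraries by replicate number was neither shown nor excluded. Residuals of same-numbered libraries correlated at 0.0287 to 0.199, over 0.1 in 1 of 4 pairs. Of 8 libraries 4 correlated best with their own number. With the replicate block, the log2 fold change changed sign for Slc40a1 (-0.000802) and Ly6c2 (-0.0296). With the neutrophil list covariate, the log2 fold change changed sign for Itgam (-0.36), Adgre1 (0.00603), Csf1r (0.0712), Slc40a1 (-0.0979), Treml4 (0.20), Hp (-0.0314), Mki67 (-0.17), Cybb (-0.00253), Ltf (-0.11), Lcn2 (-0.0112), Ngp (-0.0872), Cd177 (-0.11), G0s2 (-0.18), Slfn4 (-1.23), Ifitm6 (-0.0741), Ly6c2 (-0.60) and Ifit3 (-0.15). With that covariate and the replicate block together, a fit with few degrees of freedom, the log2 fold change changed sign for Itgam (-1.08), Adgre1 (0.67), Csf1r (0.25), Slc40a1 (-0.63), Treml4 (0.65), Lyz2 (0.61), Ighm (-0.67), Ctss (0.24), Ccr2 (0.31), Mmp8 (-0.38), Ltf (-0.28), Camp (-0.11), Ly6g (-2.05), Asprv1 (-0.20), Slfn4 (-4.16), Ly75 (-0.92), Hpgd (0.34), Chil1 (-0.25), Adgre4 (0.16), Cx3cr1 (0.54), Ly6c2 (-1.11), Il18 (1.30), Ncf1 (-0.00976), Ifitm3 (0.15) and Ifit3 (-2.47). With a covariate from 8 mature neutrophil genes, chosen after seeing the data, the log2 fold change changed sign for Itgam (-0.38), Slc40a1 (-0.51), Treml4 (0.13), Cxcr2 (-0.0664), Il1r2 (-0.45), Hdc (-0.12), G0s2 (-0.34), Asprv1 (-0.12), Trem1 (-0.25) and Irf7 (0.0847). Without both libraries numbered 2, also chosen after seeing the data, the log2 fold change changed sign for Cybb (-0.12), Slfn4 (-0.34), Ly6c2 (-0.35) and Ifit3 (-0.60). With 1 library left out at a time, the log2 fold change changed sign for Ptprc (-0.24 to 0.0327), Itgam (-0.0475 to 0.32), Slc40a1 (-0.0896 to 0.28), Lyz2 (-0.11 to 0.0637), Ccnd3 (-0.16 to 0.039), H2-Ab1 (-0.13 to 0.23), Cybb (-0.0792 to 0.19), Slfn4 (-0.28 to 0.95), Ly6c2 (-0.40 to 0.33), Irf7 (-0.51 to 0.0806) and Ifit3 (-0.32 to 1.02). A covariate fixes the values of its own members in part. Such members are Ltf, Lcn2, Ngp, Cd177, G0s2, Slfn4, Ifitm6, Mmp8, Camp, Ly6g and Asprv1 for the neutrophil list. Cxcr2, Il1r2, Hdc, Asprv1 and Trem1 are such members for the 8 mature neutrophil genes. The cause of the other changes was not tested. Depth limits Mpo, Elane and Kcnj16, which rest on few reads in some libraries.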

Other observations

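Further lists are given by their counts in the spleen libraries, with unadjusted p-values from edgeR, beside 3.71% of all tested genes higher and 2.36% lower at 12 months at a p under 0.05. Glycolysis genes had higher means at 12 months in 17 of 20, 4 of them at that p, with a median log2 fold change of 0.19, and 0 of 20 at that p with the neutrophil covariate and 1 to 4 with 1 library left out. Targets of NRF2, which switches on antioxidant genes, had 13 of 18 higher, 5 at that p, with a median of 0.23, and 2 at that p with the neutrophil covariate and 1 to 5 with 1 library left out, the lowest being without the first 3-month library. Heat shock and chaperone genes had 10 of 14 lower, 3 at that p, with a median of -0.11, and 2 at that p with the covariate and 1 to 3 with 1 library left out. Autophagy genes had 12 of 17 higher, 3 at that p, with a median of 0.16. There were 2 at that p with the covariate and 2 to 4 with 1 library left out. All 12-month libraries lay above all 3-month libraries for 3 of the 17, against 1.13% of all tested genes.

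Genes of antigen presentation and B cells differed between the fits. The 12 MHC class II genes had a median of 0.13 without and 0.53 with the neutrophil covariate, with 1 and 7 genes higher at an unadjusted p under 0.05. The 12 B cell genes had medians of 0.37 and 0.94, with 0 and 9 genes higher at that p. The mature neutrophil covariate gave medians of 0.46 and 0.94. Without the fourth 12-month library, and with no covariate, the medians of both lists were below 0, at -0.10 and -0.059. The fourth 12-month library held the highest B cell sum, 3830.3 CPM, against 1052 to 2264 CPM at 3 months. Chemokine receptor genes had a median of 0.41, with 2 of 14 higher at that p, and a median of 0.10 without the fourth 12-month library and -0.0086 with the mature neutrophil covariate. Genes of the lysosome had a median of -0.05, with 1 higher and 1 lower of 26 at that p, and a median of 0.022 with the neutrophil covariate. The 23 nuclear-encoded respiratory chain genes had a median of -0.079, with 0 at that p, and medians from -0.19 to 0.014 with 1 library left out.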
